A study of Rattus norvegicus with 18 samples.

Results

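The genes described here are the 204 whose signal was higher with MEF2 RNAi than with control shRNAs at each of 3 times in rat hippocampal neurons, 1.43% of the 14218 gene symbols measured. Signals below 72.6, the 20th percentile of the table, were raised to that floor and log2 was taken. Each symbol was read by its probe set (the short oligonucleotides that give 1 value) with the highest mean, and a gene was kept where the group means differed by at least 0.4 on the log2 scale, a 1.32-fold ratio, at 0, 1 and 6 h. The rule gave 219 symbols (1.54% of all), of which 15 were set aside by name or prefix, among them S100b, Ttr, Ccng1 and Hrk, which are on the marker and pathway lists used below. The genes were thus chosen by their signals in RNAi against control, so their differences between the arms are given as a description and without a test. Their response to KCl, averaged over both arms, was not used in the choice and was tested.

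The study holds 18 Affymetrix arrays in 6 groups of 3. Neurons in dissociated hippocampal culture received lentivirus with control shRNAs or with MEF2-specific shRNAs on day 3 in vitro, and all groups spent 1 h on day 10 with the NMDA receptor blocker AP5 and the sodium channel blocker TTX. Both arms were then held in 55 mM KCl for 0, 1 or 6 h, so that the 0 h groups had blockers and no added KCl. Each array is labelled a biological replicate, with no more on the cultures, so p-values measure the spread between these samples, and triplets of signals below are in the order of replicates 1, 2 and 3.

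MEF2 proteins are DNA-binding transcription factors that activate genes when calcium enters a neuron and that, bound by class IIa histone deacetylases, can also repress them. In hippocampal neurons they are known for limiting the number of excitatory synapses after activity. Genes that are higher when MEF2 is depleted can lie anywhere downstream, and an array of whole cultures does not separate direct targets from the rest.

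Array medians ran from 240.0 to 248.0 and arrays of 1 group correlated at 0.993 to 0.998 across probe sets. Mef2a was lower with RNAi at 0, 1 and 6 h (log2 differences -1.61, -1.92 and -1.86), as was Mef2d (-0.52, -0.42 and -0.57), and Mef2c stood at -0.18, -0.38 and -0.30. Samples with the same replicate number deviated together. Of the 204 genes, 202 were higher with RNAi in all 9 same-numbered pairs of arrays, and Mgp and Ccl2 were higher in 8 pairs. These counts rest on the differences that chose the genes and were not taken over all genes, so nothing is read from them. Neuron markers were present on every array, with a summed signal of 69657 to 76414 over the controls at 0 h.

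Most of the differences were moderate and of similar size at the 3 times. Their median was 0.63 at 0 h, 0.61 at 1 h and 0.59 at 6 h, beside 0.02, 0.01 and 0.02 over all 10933 genes tested. A difference of at least 1, a doubling, was reached by 19 genes at 0 h, 11 at 1 h and 8 at 6 h, and by 3 genes (Fam107a, Gcsh and Tbc1d16) at every time. The smallest of the 3 differences was at least 0.6 in 64 genes and under 0.5 in 91. Every RNAi array lay above every control array for 181 genes at 0 h, 176 at 1 h and 176 at 6 h, where 13.7%, 14.6% and 14.9% of all symbols did so. At all 3 times together this held for 161 genes, at 2 times for 18, at 1 time for 14 and at none for 11. For 102 genes each of the 9 RNAi arrays lay above each of the 9 control arrays whatever the time, against 1.74% of all symbols. The rule set these counts apart from the background, and nothing is read from them.

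**Figure D1:**
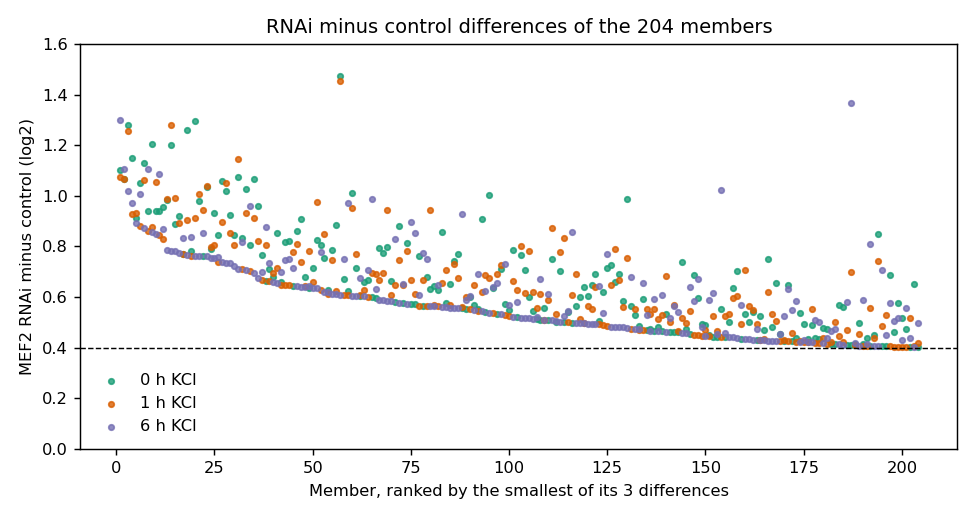
RNAi minus control differences (log2) of the 204 genes at 0, 1 and 6 h of KCl, ranked by the smallest of the 3, with a dashed line at the 0.4 limit of the rule. The points of 1 rank are 1 gene; 91 genes have a smallest difference under 0.5 and 3 have one of at least 1.

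The gene with the largest smallest difference was Fam107a, which encodes an actin-associated protein of the brain that is known to respond to stress hormones. Its signals at 0 h were 345, 656 and 895 in control arrays and 822, 1214 and 2005 in RNAi arrays, and at 6 h they were 239, 285 and 567 against 547, 825 and 1277. The arms overlapped at each time, with replicate 3 the highest and replicate 1 the lowest of every group, and each RNAi array lay above the control array of its number. The differences of the means were 1.10, 1.08 and 1.30 at 0, 1 and 6 h. A dimmer probe set of Fam107a showed -0.01, 0.23 and 0.13, and with the mean over both the 6 h difference was 0.71.

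Gcsh, the lipoyl-carrying H protein of the glycine cleavage system, had signals of 1618, 1131 and 1361 in control and 3034, 2751 and 2734 in RNAi arrays at 0 h. At 6 h they were 1539, 1234 and 1399 against 3438, 2796 and 2765. No RNAi array at any time fell to the level of a control array, and the differences were 1.07, 1.07 and 1.11. Tbc1d16, which encodes a GTPase-activating protein for Rab proteins, stood at 1091, 1120 and 841 against 2409, 2710 and 2250 at 0 h, with differences of 1.28, 1.25 and 1.02 and again no overlap among the 18 arrays.

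**Figure D2:**
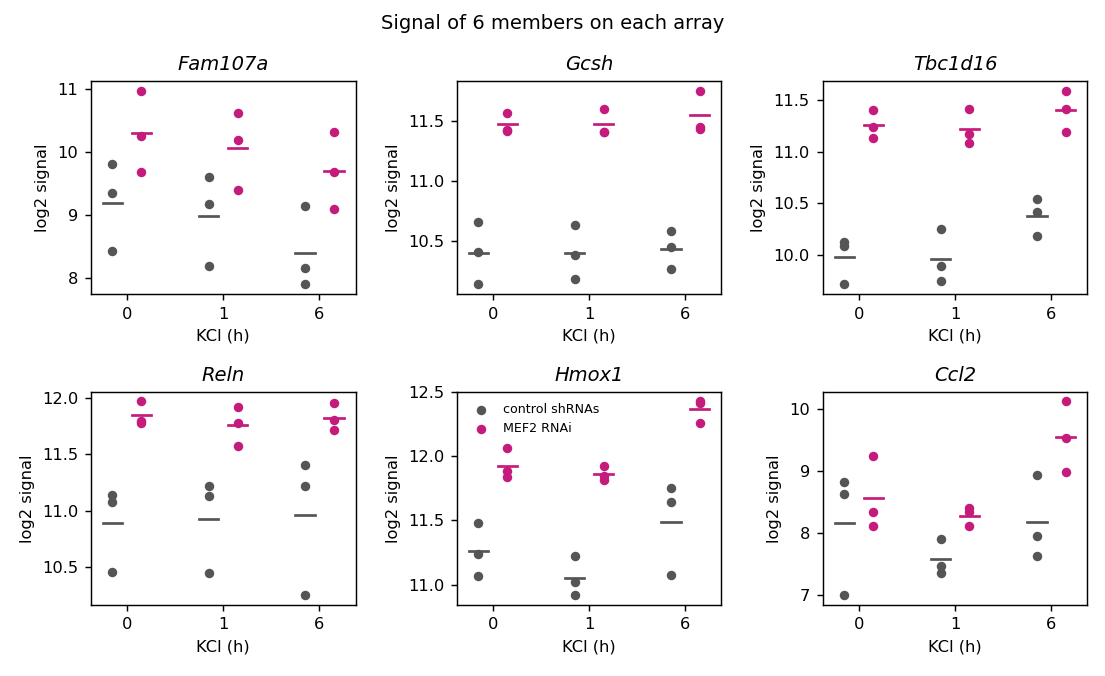
Log2 signal of 6 of the 204 genes on each array (points; lines are group means of 3 arrays) by hours of KCl, controls in grey and MEF2 RNAi in magenta. Fam107a overlaps between arms at each time and Ccl2 at 0 h, while Gcsh, Tbc1d16, Reln and Hmox1 keep the arms apart.

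Of the next 5 genes in rank, Slc7a14, a lysosomal transporter-like protein, stood at 249, 333 and 283 in control and 636, 579 and 699 in RNAi arrays at 0 h (differences 1.15, 0.93 and 0.97). Guk1, guanylate kinase, which makes GDP from GMP, stood at 3089, 2819 and 2670 against 5590, 5231 and 5293 (0.91, 0.93 and 0.89). Both kept the arms apart at each time. Rab2b, a small GTPase of the Golgi, had signals of 1484, 1676 and 1665 against 3324, 3271 and 3373 (1.05, 0.88 and 1.01), and its second probe set gave 0.91, 0.86 and 0.84. Zdhhc7, a palmitoyl transferase, had 879, 1023 and 889 against 2004, 1919 and 2177 (1.13, 1.06 and 0.87). Smim3, a small membrane protein, had 200, 174 and 169 against 366, 342 and 332, and the difference was widest at 6 h (0.94, 0.86 and 1.10).

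Mtmr6, a phosphatase of phosphoinositide lipids, stood at 1095, 1053 and 901 in control and 2106, 2299 and 2616 in RNAi arrays at 0 h (differences 1.20, 0.88 and 0.86). Coq2, an enzyme of coenzyme Q synthesis, stood at 350, 426 and 380 against 679, 780 and 754 (0.94, 1.06 and 0.85). Neither had an RNAi array at the level of a control array at any time. Reep1, which shapes the endoplasmic reticulum of axons, had 2945, 4166 and 3574 against 6336, 6809 and 7161 (0.94, 0.84 and 1.09). Reln, the secreted protein reelin that guides neuronal positioning, had 1405, 2255 and 2162 against 3510, 3545 and 4011 (0.95, 0.83 and 0.87). Control replicate 1 was the low array of Reln at each time, and without it at 6 h the difference at that time was 0.51. The other Reln probe set gave 0.85, 0.83 and 0.90.

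By what their products do, 160 of the genes were sorted into 12 roles, after their values had been seen, and 44 were left unsorted. Median differences of the roles at 0 h ran from 0.51 (metabolism and mitochondria) to 0.75 (RNA processing, ribosome assembly and translation). The counts of genes with arms apart that follow rest on the values that chose the genes, and no difference between roles is read from them.

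**Figure D3:**
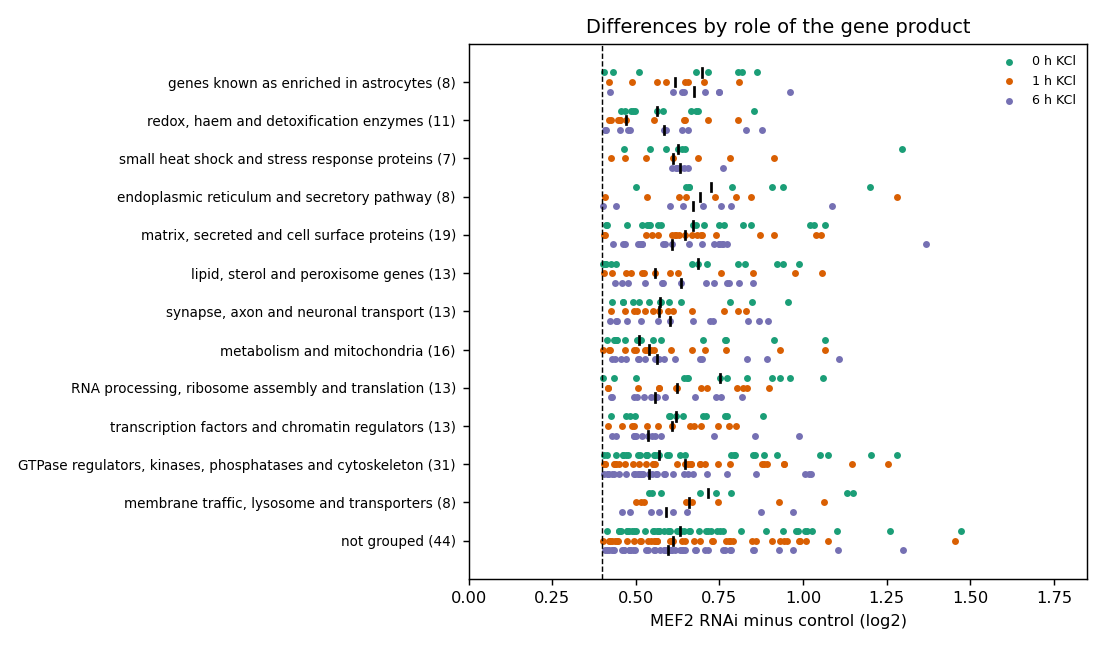
RNAi minus control differences (log2) by role, with the number of genes in brackets; points are genes at 0, 1 and 6 h, black ticks are medians and the dashed line is the 0.4 limit. All points lie at or above the limit by the rule, and the medians of the roles lie within 0.47 to 0.75.

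The largest role was that of GTPase regulators, kinases, phosphatases and cytoskeletal proteins, with 31 genes, of which 28 kept the arms apart at all 3 times. Mcf2l, a guanine nucleotide exchange factor, had signals of 2303, 2578 and 2215 in control and 4260, 5550 and 5212 in RNAi arrays at 0 h. The arms did not overlap at any time, with differences of 1.08, 1.15 and 0.71. Vav2, another exchange factor, stood at 224, 252 and 196 against 342, 441 and 429 (0.85, 0.74 and 0.41). Akap13, an anchoring protein of protein kinase A, stood at 1028, 1157 and 944 against 1319, 1554 and 1567 (0.51, 0.49 and 0.64). Rcan1, an inhibitor of the calcium-dependent phosphatase calcineurin, had differences of 0.51, 0.56 and 0.52. Pkia, an inhibitor of protein kinase A, had 0.46, 0.47 and 0.54, and Mapk9, the stress kinase JNK2, had 0.41, 0.41 and 0.42 with overlapping arms at 0 and 1 h. The dual-specificity phosphatases Dusp3 (0.56, 0.51 and 0.51) and Dusp26 (0.46, 0.40 and 0.51) were also among these genes.

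Matrix, secreted and cell surface proteins numbered 19, of which 10 kept the arms apart at all 3 times. Timp1, an inhibitor of matrix metalloproteinases, had 2617, 2162 and 2136 in control and 3307, 3069 and 3508 in RNAi arrays at 0 h, without overlap, and differences of 0.52, 0.63 and 0.58. The membrane-bound protease Mmp14 stood at 2395, 2257 and 3068 against 4446, 3341 and 4836 (0.70, 0.62 and 0.52), with overlap at 6 h. Tgfb2, a secreted growth factor, stood at 797, 1170 and 1123 against 1190, 1641 and 1739 (0.57, 0.67 and 0.77), apart at each time. Among the members are also 3 enzymes of heparan or dermatan sulfate chains, picked after their values were seen. Extl3, which starts heparan sulfate chains, had 1294, 1396 and 1247 against 2583, 2589 and 2804 at 0 h (1.02, 1.05 and 0.73), Dsel, a dermatan sulfate epimerase, had differences of 1.07, 0.91 and 0.70, and the sulfotransferase Hs6st1 had 0.75, 0.87 and 0.51.

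Some surface and secreted genes varied widely between arrays of 1 group. Lgals3, galectin-3, stood at 871, 470 and 431 in control and 1460, 516 and 1355 in RNAi arrays at 0 h, and the arms overlapped at each time (differences 0.84, 0.74 and 0.76). Mgp, matrix Gla protein, overlapped at each time too (0.47, 0.53 and 0.47). The chemokine gene Ccl2 stood at 454, 398 and 129 against 605, 278 and 324 at 0 h, where the arms overlapped, and at 199, 249 and 487 against 741, 504 and 1110 at 6 h, where they did not. Its difference was the widest of all at 6 h, 1.37, against 0.41 at 0 h and 0.70 at 1 h.

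Metabolic and mitochondrial genes numbered 16 and kept the arms apart at all 3 times in 15. Pfkfb2, whose bifunctional enzyme sets the level of an activator of glycolysis, stood at 468, 440 and 411 in control and 630, 767 and 754 in RNAi arrays at 0 h, with differences of 0.70, 0.60 and 0.44. Its paralog Pfkfb4 had 0.41, 0.50 and 0.47. Mtfr1l, a mitochondrial fission regulator, stood at 2986, 2827 and 3167 against 4954, 4742 and 5653 (0.77, 0.77 and 0.83). Ckmt1, the mitochondrial creatine kinase, had 0.55, 0.55 and 0.69. Gamt, which makes creatine, was the exception: its signals of 1542, 894 and 1375 overlapped with 1955, 1313 and 1855 at 0 h, and the arms overlapped at the other times (0.44, 0.53 and 0.62). The mitochondrial ribosome proteins Mrpl38 (0.58, 0.71 and 0.56) and Mrpl53 (0.44, 0.49 and 0.57) kept the arms apart.

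Of 13 lipid, sterol and peroxisome genes, 9 kept the arms apart at all 3 times. Abca1, which exports cholesterol from cells, stood at 520, 368 and 554 in control and 960, 683 and 1103 in RNAi arrays at 0 h, without overlap (differences 0.92, 0.85 and 0.73). Soat1, which esterifies cholesterol for storage, stood at 197, 180 and 191 against 354, 363 and 409 (0.99, 0.76 and 0.48). Mgll, which breaks down the endocannabinoid 2-arachidonoylglycerol, had 782, 874 and 916 against 1204, 1288 and 1622 (0.67, 0.60 and 0.71). The arms overlapped at each time for Pltp, Acot1 and Abhd3, which transfer or hydrolyse lipids.

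Synaptic, axonal and neuronal transport genes numbered 13, and 12 kept the arms apart at all 3 times. Cplx1, complexin 1, which clamps the vesicle fusion machinery, had signals of 4174, 4572 and 4731 in control and 6446, 6250 and 6476 in RNAi arrays at 0 h (differences 0.51, 0.61 and 0.67). Vamp1, a vesicle SNARE, had 358, 350 and 344 against 546, 546 and 502 (0.60, 0.55 and 0.60). Both were apart at every time. Syn2, synapsin 2, had differences of 0.54, 0.43 and 0.42, Kifap3, a kinesin-2 subunit, 0.78, 0.76 and 0.84, and Prph, the intermediate filament peripherin, 0.85, 0.81 and 0.72. The other probe sets of Vamp1, Syn2 and Kifap3 had smaller differences. The lowest, none at the floor on any array, gave -0.003, 0.004 and 0.041 for Vamp1, -0.04, 0.09 and 0.32 for Syn2 and 0.04, 0.10 and 0.09 for Kifap3. The axon guidance ligand Efna5 (0.57, 0.53 and 0.73) and the adhesion protein Flrt3 (0.57, 0.67 and 0.90) were also higher. Adcyap1r1, the receptor of the neuropeptide PACAP, overlapped between the arms at 0 and 6 h (0.43, 0.49 and 0.47).

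RNA processing, ribosome assembly and translation held 13 genes, of which 12 kept the arms apart at all 3 times. Rbm34, an RNA-binding protein, stood at 524, 442 and 428 in control and 994, 910 and 987 in RNAi arrays at 0 h (differences 1.06, 0.90 and 0.74). Tgs1, which trimethylates the cap of small nuclear RNAs, stood at 1014, 927 and 845 against 1752, 1847 and 1807 (0.96, 0.82 and 0.68). The ribosome assembly factors Nolc1 (0.64, 0.57 and 0.56), Pdcd11 (0.77, 0.69 and 0.59) and Nip7 (0.75, 0.62 and 0.43) and the cap-binding protein gene Ncbp2 (0.91, 0.62 and 0.55) each had their widest difference at 0 h.

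The 13 transcription factors and chromatin regulators all kept the arms apart at all 3 times. Nfya, a subunit of the CCAAT-binding factor, stood at 664, 794 and 616 in control and 1056, 1372 and 1397 in RNAi arrays at 0 h (differences 0.88, 0.75 and 0.58). Asxl1, a partner of a histone H2A deubiquitinase, had 1107, 1030 and 953 against 1780, 1825 and 1642 (0.77, 0.80 and 0.52). Pogk, a DNA-binding protein related to a transposase, had 668, 625 and 578 against 978, 947 and 908 (0.60, 0.69 and 0.99). Mrgbp, a subunit of the NuA4 acetyltransferase complex, had 0.77, 0.67 and 0.56. Kdm6b, a histone H3 lysine 27 demethylase, had 0.62, 0.49 and 0.54, and Cdk19, a kinase of the Mediator complex, had 0.71, 0.66 and 0.73.

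Among 8 genes of the endoplasmic reticulum and secretory pathway, 7 kept the arms apart at all 3 times. Edem1, which sorts misfolded glycoproteins for degradation, stood at 428, 377 and 384 in control and 750, 941 and 1067 in RNAi arrays at 0 h (differences 1.20, 1.28 and 0.78). Sec61a1, the channel through which proteins enter the reticulum, stood at 2188, 1995 and 2133 against 3492, 3424 and 4007 (0.79, 0.80 and 0.76). The thioredoxin-like proteins Tmx1 (0.66, 0.63 and 0.60) and Txndc5 (0.50, 0.53 and 0.44) kept the arms apart, while Fbxo2, which binds glycoproteins for ubiquitination, overlapped at 0 and 1 h.

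The 8 membrane traffic, lysosome and transporter genes kept the arms apart at all 3 times. Chmp7, a subunit of the ESCRT-III complex, had signals of 1446, 1567 and 1534 in control and 2494, 2619 and 2715 in RNAi arrays at 0 h (differences 0.78, 0.75 and 0.61). Tpp1, a lysosomal peptidase, had 0.54, 0.50 and 0.55, and Slc39a1, a zinc importer, had 0.74, 0.52 and 0.46.

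Small heat shock and stress response proteins numbered 7, with 4 apart at all 3 times. Hspb1, a small heat shock protein, stood at 879, 716 and 461 in control and 948, 1133 and 1014 in RNAi arrays at 0 h (differences 0.64, 0.78 and 0.64), with overlap at 6 h. Cryab, alpha B-crystallin, stood at 955, 868 and 866 against 1340, 1403 and 1404 (0.63, 0.61 and 0.62), apart at each time. Zfand2a, a heat-shock-inducible partner of the proteasome, had the widest difference of the role, with 496, 488 and 439 against 1020, 1140 and 1353 at 0 h (1.30, 0.91 and 0.76). The phosphatase subunits Ppp1r15a and Ppp1r15b, which reverse the phosphorylation of translation factor eIF2 alpha, had 0.65, 0.43 and 0.63 and 0.54, 0.69 and 0.62.

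Of 11 redox, haem and detoxification enzymes, 7 kept the arms apart at all 3 times. Hmox1, haem oxygenase 1, stood at 2417, 2857 and 2146 in control and 3770, 4280 and 3650 in RNAi arrays at 0 h, and no RNAi array at any time lay below a control array (differences 0.66, 0.81 and 0.88). Nqo1, a quinone reductase, stood at 2609, 3623 and 2905 against 3805, 5016 and 4003 (0.49, 0.45 and 0.48). Blvrb, which reduces biliverdin, had 0.49, 0.47 and 0.48, and Gpx1, glutathione peroxidase 1, had 0.50, 0.45 and 0.41. Selenop, a secreted selenium carrier, spread from 1055 to 2691 over the control arrays at 0 h and from 1711 to 3444 over the RNAi arrays, and its arms overlapped at each time (0.69, 0.45 and 0.58).

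The genes sorted into the role of those known as enriched in astrocytes were Agt, Gpr37l1, Scrg1, Ntsr2, Hopx, Slco1c1, Nkain4 and Id3. Each gene was placed in 1 role only, so this is not a full list of such genes among the members. Gpr37l1, an orphan receptor of glia, stood at 630, 531 and 658 in control and 1086, 866 and 1403 in RNAi arrays at 0 h, and was the 1 gene of the 8 with arms apart at all 3 times (differences 0.86, 0.81 and 0.64). Agt, angiotensinogen, stood at 617, 459 and 534 against 987, 765 and 888, apart at 0 h and overlapping later (0.72, 0.66 and 0.64). Slco1c1, a transporter of thyroid hormone, overlapped at each time, with 370, 612 and 885 against 489, 829 and 1151 at 0 h (0.41, 0.49 and 0.71). Id3, an inhibitor of helix-loop-helix transcription factors, overlapped at 1 h (0.80, 0.70 and 0.96).

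Summed signals of several cell type marker lists differed between the arms. None of the 204 genes is on these lists, but that follows in part from the names set aside: the astrocyte marker S100b (differences 0.41, 0.44 and 0.43) and the choroid plexus marker Ttr (1.20, 1.16 and 1.42) met the limit at every time. The summed signal of 11 astrocyte markers was higher with RNAi in 9 of 9 same-numbered pairs, by 1.09-fold to 1.21-fold (median 1.14). These sums ranged from 43740 to 58381 over the control arrays at 0 h and from 52829 to 63819 over the RNAi arrays, so the groups overlapped. Of the 10 astrocyte markers tested, 0, 0 and 1 were called higher with RNAi at 0, 1 and 6 h by limma (Aldoc at 6 h), where 8.66%, 7.98% and 8.66% of all genes were. Gjb6 lay at the floor on every array. Aldh1l1 was lower at each time (-0.16, -0.19 and -0.29) and Glul stood at 0.10, -0.05 and -0.08. Higher at each time without being called were Gja1 (0.40, 0.32 and 0.30), Aqp4 (0.36, 0.25 and 0.37) and Gfap (0.14, 0.28 and 0.15). The median difference of the astrocyte list was 0.14, 0.22 and 0.20. Summed choroid plexus and ependymal markers were 1.24-fold to 1.97-fold higher in the 9 pairs, a sum in which Ttr has the highest mean signal (2161). Of the others on that list, Folr1 stood at 0.13, 0.20 and 0.15 and Aqp1 at -0.02, 0.15 and 0.01. Enpp2 stood at 0.49, 0.40 and 0.48, just outside the limit, and Foxj1 at 0.31, 0.24 and -0.01. Progenitor markers were 1.01-fold to 1.31-fold higher. Microglia and macrophage markers stood at 0.932 to 1.131 of control, above it in 5 of 9 pairs. Oligodendrocyte lineage markers stood at 0.948 to 1.546, above control in 7 of 9 pairs. Neuron markers stood at 0.830 to 0.993 of control, immature neuron markers at 0.710 to 0.941 and endothelial and fibroblast markers at 0.557 to 0.871. In the last sum Dcn has the highest mean signal (1722, with differences of -1.06, -1.04 and -0.49). Lum stood at -1.16, -1.34 and -0.01 and Cldn5 at -0.19, -0.16 and -0.97, while Col1a1 stood at 0.14, -0.14 and -0.04 and Pdgfrb at 0.07, 0.14 and 0.07. Of 14 neuron markers tested, 2, 3 and 3 were called lower and 0 higher, where 6.19%, 9.12% and 8.54% of all genes were lower. Nefm (mean signal 3603) stood at -0.97, -1.09 and -1.06. Stmn2, the brightest of that list (15515), stood at -0.007, -0.003 and -0.006, and Snap25 at 0.15 at each time. In bulk samples, fewer cells of a type and less RNA per cell cannot be told apart. The part of these shifts in the members' differences was not tested.

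**Figure D4:**
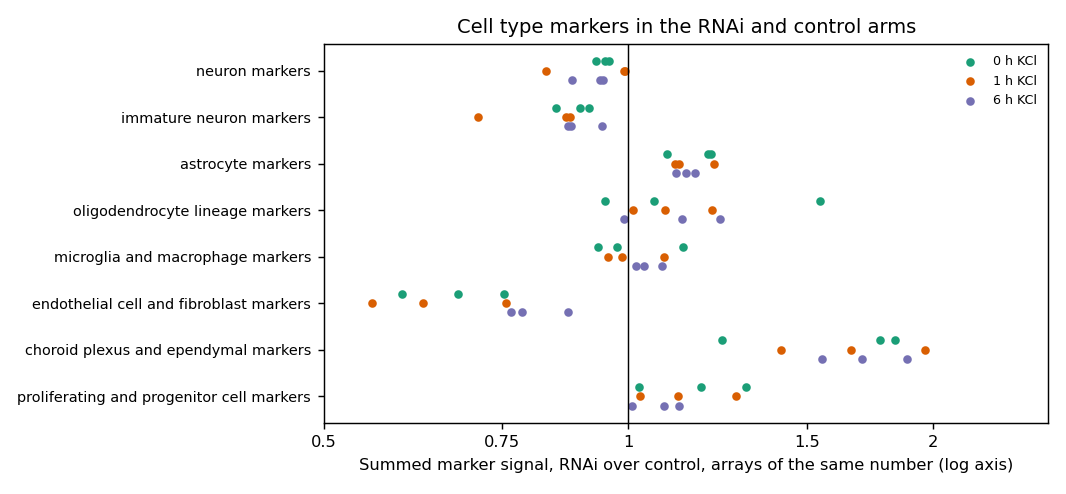
Summed signal of cell type marker lists, RNAi over control for arrays of the same replicate number (log axis), at 0, 1 and 6 h of KCl. Astrocyte markers lie between 1.09 and 1.21, choroid plexus and ependymal markers, whose brightest gene is Ttr, between 1.24 and 1.97, and neuron markers between 0.830 and 0.993.

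The members also varied with the replicate number, which the rule did not use. Replicate 2 was the lowest of its group in all 6 groups for 23 genes (11.3%), against 2.63% of genes tested, and replicate 1 was the lowest in all 6 for 24 genes (11.8%, against 5.46%). Fam107a is of the latter kind, and Selenop and Gamt are of the former. Replicate 1 was the highest in all 6 groups for 14 genes (6.86%, against 7.31%). Among the 10 astrocyte markers, replicate 2 was lowest in all groups for 4 and replicate 1 highest for 5. Whether this spread bears on the differences was not tested.

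The difference between arms changed little with KCl in most genes. From 0 h to 6 h it moved by less than 0.3 in 179 genes, widened by at least 0.3 in 9 and narrowed by at least 0.3 in 16, with a median change of -0.04. It was largest at 0 h in 87 genes, at 1 h in 56 and at 6 h in 61. Ccl2 widened most, as given above. Kndc1, a guanine nucleotide exchange factor of dendrites, went from 0.55 and 0.44 to 1.02. Its control signals went from 363, 411 and 385 at 0 h to 102, 130 and 165 at 6 h, and its RNAi signals from 479, 609 and 624 to 253, 239 and 304. C8h11orf87, an uncharacterised gene, narrowed most, from 1.47 and 1.45 to 0.61, and at 0 h had the widest difference of the 204 (267, 344 and 213 against 587, 780 and 911). Its control signals reached 363, 564 and 470 at 6 h, while the RNAi signals were 590, 734 and 784. These changes share their arrays with the rule and were given no test.

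The response to KCl, taken as the mean over both arms, asks whether the 204 genes respond to depolarization. At 6 h against 0 h, 46 rose (22.5%) and 64 fell (31.4%), and 94 were not called (limma, adjusted p under 0.05 over all genes tested). Of all genes tested, 20.7% rose and 32.0% fell, so the members' shares were close to the background. Their median was -0.05, against -0.02 over all genes. At 1 h against 0 h, 6 rose (2.94%) and 17 fell (8.33%), beside 2.33% and 6.04% of all genes. With the replicate number as a block the counts at 1 h were 8 and 32, beside 4.16% and 11.3% of all genes. From 1 h to 6 h, 53 rose (26.0%) and 46 fell (22.5%), beside 20.4% and 25.8%. Of the genes called at 6 h, 109 of 110 had the same sign in both arms, as had 23 of 23 at 1 h. The calls were made on the mean of the arms, which favours equal signs, and the share over all called genes was not counted. Nothing on the arms is read from these counts. The 221 genes that met the rule in the other direction, lower with RNAi at each time, had 48 rises and 84 falls at 6 h among 219 tested.

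**Figure D5:**
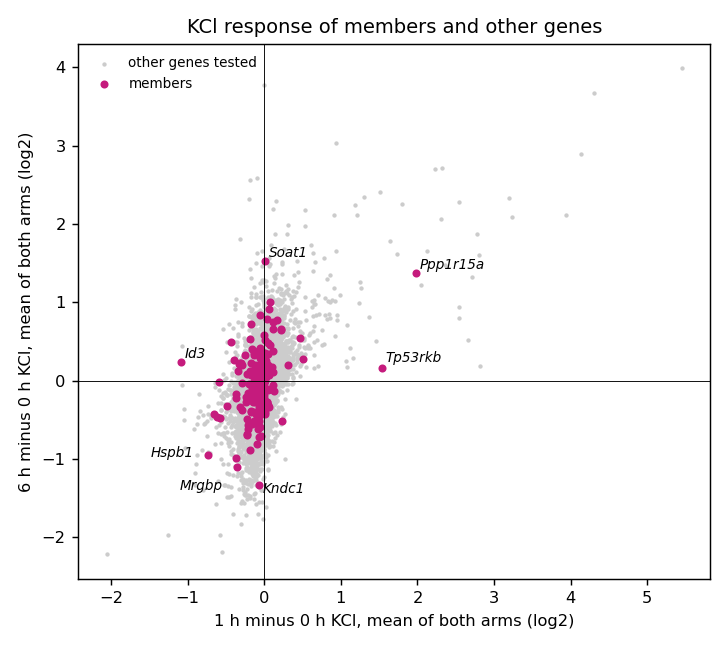
Change with KCl (log2, mean of both arms) at 1 h (x axis) and 6 h (y axis) against 0 h, for the 204 genes (magenta) and the other genes tested (grey). Most of the 204 lie near the middle; Ppp1r15a is at 1.97 and 1.37, Tp53rkb at 1.53 and 0.16, and Kndc1 at -0.07 and -1.34.

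At 1 h the largest rise was of Ppp1r15a, from control signals of 366, 428 and 553 to 1688, 1663 and 2362 and from RNAi signals of 568, 679 and 865 to 1991, 2589 and 3118. All 6 arrays at 1 h lay above all 6 at 0 h, a 3.93-fold rise (log2 1.97, SE 0.14, n = 3 arrays per group; limma adjusted p = 6.76e-08). Tp53rkb, a gene of the family of p53-regulating kinases, rose 2.89-fold (1.53, SE 0.07; limma adjusted p = 8.03e-10). Its control signals of 632, 619 and 601 became 1560, 1844 and 1787 at 1 h and were back at 718, 710 and 736 at 6 h, and the RNAi arm followed the same course at a higher level. Steep1, which takes part in STING traffic, rose by 0.51 and Rassf1, a Ras-association tumour suppressor, by 0.46. Among the falls, Id3 fell by 1.09 (SE 0.21; limma adjusted p = 0.00361), from 404, 411 and 351 to 243, 184 and 151 in the control arm, and at 6 h it stood at 0.24, which was not called. Hspb1 fell by 0.73, Zbtb7a, a zinc-finger repressor, by 0.66 and Ddit4l, an inhibitor of mTOR signalling, by 0.58.

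At 6 h the largest rise was of Soat1, 2.88-fold (log2 1.53, SE 0.07, n = 3 arrays per group; limma adjusted p = 1.65e-10). Its signals at 6 h were 607, 606 and 748 in control and 846, 829 and 1054 in RNAi arrays, all above every array at 0 h and 1 h. Ppp1r15a was still 2.59-fold above 0 h (1.37, SE 0.14). Smim3 rose 2.01-fold (1.01, SE 0.07), to 300, 339 and 397 in control and 766, 677 and 775 in RNAi arrays. Akap13 rose by 0.92 and Klhdc8b, a kelch-domain protein of cell division, by 0.84. Pogk rose by 0.79 and Trip6, a LIM-domain protein of focal adhesions, by 0.78. Slco1c1 was called at 0.74 (SE 0.29; limma adjusted p = 0.0394), but the call was lost without any of 8 single arrays at 0 h or 6 h. Its adjusted p was 0.105 without control replicate 1 at 0 h, 0.105 without RNAi replicate 1 at 0 h, 0.102 without control replicate 3 at 6 h and 0.0966 without RNAi replicate 3 at 6 h. Without replicate 2 of each of these groups it lay between 0.0509 and 0.0572. These fits did not use the replicate number, and the call was kept with the number as a block. Control signals of 370, 612 and 885 at 0 h were 654, 818 and 1286 at 6 h. RNAi signals of 489, 829 and 1151 were 1173, 1302 and 1961, so each same-numbered pair rose.

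The largest fall at 6 h was of Kndc1, 2.53-fold (log2 -1.34, SE 0.11, n = 3 arrays per group; limma adjusted p = 3.09e-08). Mrgbp fell 2.14-fold (-1.10, SE 0.06), from 1662, 1573 and 1550 to 844, 702 and 870 in control and from 2610, 2723 and 2836 to 1235, 1208 and 1098 in RNAi arrays. All of its 6 h arrays lay below all of its 0 h arrays. Pfkfb2 fell 1.99-fold (-0.99, SE 0.06) and Hspb1 1.93-fold (-0.95, SE 0.17). Mcf2l and Vav2 fell by 0.89 and 0.72, Inf2, a formin that builds actin filaments, by 0.80, and Reep1 by 0.70. In all, 3 genes rose and 2 fell at least 2-fold at 6 h.

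By role, metabolic and mitochondrial genes had 0 rises and 9 falls among 16 at 6 h (median -0.24), and lipid, sterol and peroxisome genes had 1 rise, Soat1, and 8 falls among 13 (median -0.20). RNA processing genes had 5 rises and 1 fall among 13 (median 0.11), and the GTPase regulator, kinase and cytoskeleton role had 10 rises and 7 falls among 31 (median 0.06). Transcription factors and chromatin regulators had 2 rises and 5 falls among 13. Of all genes tested, 20.7% rose and 32.0% fell at 6 h. The roles were named with these values in view, so their counts are descriptions and no difference between roles is read from them.

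Sequence upstream of the gene start was available from RefSeq (assembly GRCr8) for 171 of the 204 genes, as windows of 250 bases before to 50 bases after the start. The cAMP response element TGACGTCA, a palindrome bound by CREB, which calcium signals activate, was in 11 of the 171 (6.43%), beside 1.91% of all 27457 promoters and 3.36% of the 9088 promoters of genes tested. Of these 11 genes, 5 rose at 6 h (Ppp1r15a, Pogk, Trip6, Rcan1 at 0.65 and Vamp1 at 0.58) and 1 fell (Fam174a at -0.51). Of all 305 genes tested with the element, 29.8% rose, against 20.8% of all tested genes with a promoter. The 250 bases before the start are shown for the 5 genes that rose, 5′ to 3′ on the gene's strand, with the element in capitals. They lie at chr1:105139597-105139846 (minus strand) for Ppp1r15a, chr13:81196327-81196576 (minus) for Pogk, chr12:25022709-25022958 (plus) for Trip6, chr11:45118237-45118486 (minus) for Rcan1 and chr4:159698644-159698893 (plus) for Vamp1, in GRCr8.
Ppp1r15a: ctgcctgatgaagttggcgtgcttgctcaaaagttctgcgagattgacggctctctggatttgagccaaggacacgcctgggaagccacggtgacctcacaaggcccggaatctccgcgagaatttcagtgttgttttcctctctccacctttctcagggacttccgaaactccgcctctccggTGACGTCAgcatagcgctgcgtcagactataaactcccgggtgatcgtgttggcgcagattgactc
Pogk: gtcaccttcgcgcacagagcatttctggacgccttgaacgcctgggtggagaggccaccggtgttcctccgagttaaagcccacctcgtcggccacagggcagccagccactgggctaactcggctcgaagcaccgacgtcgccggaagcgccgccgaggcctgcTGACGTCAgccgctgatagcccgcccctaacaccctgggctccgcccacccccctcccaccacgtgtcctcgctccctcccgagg
Trip6: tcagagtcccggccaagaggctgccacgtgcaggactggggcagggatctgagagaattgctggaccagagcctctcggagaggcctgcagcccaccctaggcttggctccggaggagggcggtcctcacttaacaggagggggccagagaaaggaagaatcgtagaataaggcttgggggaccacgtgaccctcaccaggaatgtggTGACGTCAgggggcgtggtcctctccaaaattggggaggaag
Rcan1: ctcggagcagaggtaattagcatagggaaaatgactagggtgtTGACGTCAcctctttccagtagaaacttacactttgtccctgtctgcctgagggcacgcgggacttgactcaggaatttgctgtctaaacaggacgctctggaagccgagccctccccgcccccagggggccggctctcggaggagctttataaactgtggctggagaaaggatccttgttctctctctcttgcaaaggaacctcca
Vamp1: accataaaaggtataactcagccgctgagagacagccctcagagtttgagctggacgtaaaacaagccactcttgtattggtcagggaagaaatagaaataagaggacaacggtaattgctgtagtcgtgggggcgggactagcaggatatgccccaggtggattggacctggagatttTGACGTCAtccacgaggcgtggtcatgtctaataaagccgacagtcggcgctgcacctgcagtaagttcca

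The element ends 58 bases before the start in Ppp1r15a, 77 in Pogk, 34 in Trip6, 199 in Rcan1 and 63 in Vamp1. A match is a description of these letters and shows no binding. All motifs were searched on both strands. The core of the MEF2 site, CTA and TAG with any 4 bases between them, was in 5 of 171 members (2.92%: Smim3, Ciao1, Dsel, Mrpl53 and Uqcc1), beside 3.83% of all promoters and 2.82% of tested genes. A second form of the MEF2 element, with only A or T between and a pyrimidine first and a purine last, overlaps the core form without being part of it and was in 0 of 171, beside 3.37% and 1.40%. The AP-1 site TGANTCA was in 12 (7.02%, beside 7.33% and 4.71%) and the antioxidant response core TGACNNNGC in 27 (15.8%, beside 12.2% and 14.6%). The box CCAAT, bound by the factor that Nfya belongs to, was in 54 (31.6%, beside 37.7% and 37.5%). No 2 of the 203 genes found in the RefSeq order of protein-coding genes were neighbours on a chromosome.

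The choice of probe set mattered for some genes. Of the 204, 83 had more than 1 probe set, with 125 further probe sets in all. Of these, 82 were higher with RNAi at all 3 times, 26 were mixed in sign and 17 were at or below 0 at each time, 14 of which lay at the floor on every array. The share of all probe sets higher at all 3 times was not counted, so nothing is read from the 82. A difference of at least 0.4 at all times was shown by 19 of the 125, beside 1.21% of all 31099 probe sets, a share that includes the probe sets the rule chose. The lowest were a probe set of Pfkfb2 (-0.27, 0.00 and -0.04), 1 of Edem1 (0.00, 0.00 and -0.21, at the floor on 11 arrays) and 1 of Sort1 (0.10, 0.05 and -0.20). They were followed by probe sets of Asxl1 (0.04, 0.17 and -0.18), Fam78b (-0.05, -0.05 and -0.17) and Ptprk (-0.16, 0.00 and -0.01). Whether these probe sets read different transcripts was not examined.

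At the limit of the rule, the genes just inside had smallest differences that rounded to 0.40. Ostf1, an SH3-domain protein, had 0.47, 0.40 and 0.55 and its arms overlapped at each time, while Pex14, of the peroxisome import machinery, had 0.40, 0.52 and 0.44, Sumf1, which activates sulfatases, 0.65, 0.41 and 0.40, and Rnaset2, a lysosomal ribonuclease, 0.40, 0.42 and 0.50, with arms apart. Just outside were Ptcd1 (0.53, 0.40 and 0.50), the proteoglycan gene Sdc4 (0.40, 0.54 and 0.42), Creb3 (0.47, 0.40 and 0.41) and Enpp2 (0.49, 0.40 and 0.48), each with a smallest difference a little under the limit.

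Genes of related pathways, from lists fixed with earlier results of these data known, were counted over the same fits. Of 13 p53 targets tested, 3 were called higher with RNAi at each of 0, 1 and 6 h and 0, 2 and 1 were called lower. The p53 targets called higher were Ccng1, Hrk and Aen at each time. Of 10 interferon response genes, 0, 0 and 1 were higher. Of all genes tested, 8.66%, 7.98% and 8.66% were called higher at 0, 1 and 6 h. Of 10 reported MEF2 targets, 1, 2 and 4 were lower and 1, 0 and 0 higher. Of 23 immediate early transcription factors, 2, 3 and 7 were lower and 1, 0 and 0 higher, where 6.19%, 9.12% and 8.54% of all genes were lower. The gene called higher at 0 h is Jun (0.40) on both lists, which also share Klf2, Klf4 and Nr4a1. None of the 204 genes is on these lists, but the p53 targets Ccng1 (0.87, 0.83 and 0.85) and Hrk (0.92, 0.97 and 0.94), which met the limit at every time, had been set aside by name.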

How the data were processed

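RNA of cultured rat hippocampal neurons was measured on 18 Affymetrix arrays. The deposited table holds 1 linear intensity per probe set and array; how the authors combined and normalized probes was not given in the sources used here. Probe sets were named from the platform annotation: 20832 of 31099 had 1 symbol, 436 several and 9831 none. All 204 genes matched a RefSeq gene. Signals were floored at 72.6 and log2 was taken.

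Genes above the 40th percentile of their own array on at least 3 arrays (10933, with all 204 members among them and none at the floor on any array) were fitted with limma 3.58.1 in R 4.3.3 (lmFit, eBayes, 1 mean per group, 12 residual degrees of freedom), with two-sided p-values adjusted by Benjamini-Hochberg over all of them. The fit was tested on simulated data. Promoters were searched with Python 3.11.15. With 3 arrays a group, precision is limited by their number.

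The replicate numbers pair the samples. Deviations from the group means correlated at 0.168 to 0.741 in all 45 same-numbered pairs, with a median of -0.23 for other pairs. Deviations cancel within a group, so the negative median follows from the positive pairs and is no separate evidence. A fit with the number as a block was therefore also run, and its counts at 1 h are given in the Results. With the block, 131 members were called at 6 h against 0 h in place of 110. At 6 h against 1 h, 123 were called in place of 99. Calls over all genes tested rose too. At 6 h against 0 h, 2677 were higher and 3964 lower with the block, in place of 2262 and 3497.

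The members and lists were chosen with earlier results of these data known. Named were the 12 members with the largest smallest difference, the up to 8 largest rises and 8 falls at 6 h and 4 of each at 1 h among called members, 4 genes on each side of the limit, 6 members with low other probe sets, and Mef2a, Mef2c and Mef2d. Other members were named by what they do, after their values were seen. Alternatives were other floors, the mean over probe sets, equal medians, quantile normalization, no filter, the replicate block and leaving out each array.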

Additional observations from a re-analysis of the deposited data

Results flagged for a closer look

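Tgs1 moved in opposite directions with 6 h of KCl in the arms: by 0.21 on the log2 scale in the control arm, where every array at 6 h lay above every array at 0 h, and by -0.08 in the RNAi arm, where every array at 6 h lay below every array at 0 h. The difference between the arms was not tested, since it shares arrays with the choice of genes.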

How the results depend on the processing

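With the replicate block, 40 members were called at 1 h of KCl (8 higher and 32 lower) in place of 23; the other calls and counts given in the text kept their side and stayed within 1.5 times under it. Leaving out each array in turn gave 178 to 218 members, 16 to 24 calls at 1 h, 97 to 111 at 6 h and 87 to 100 from 1 h to 6 h. The rule gave 204 genes with a floor at the 10th percentile, 198 at the 40th, 199 with equal array medians (197 shared), 200 after quantile normalization (192 shared) and 154 with the mean over probe sets (147 shared). No result changed sign under any alternative tried. The calls at 6 h of Slco1c1 (adjusted p = 0.0786) and Steep1 (adjusted p = 0.0747) were lost without the filter and without several single arrays, and that of Pfkfb2 at 1 h with the mean over probe sets. Signals near the floor understate differences, and 3 arrays per group limit small ones.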
